A study of Mus musculus with 6 samples.

Results

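Hyaluronan is a long unbranched sugar polymer of the matrix around cells. Synthases of the plasma membrane (Has1, Has2 and Has3) extrude it, the proteoglycan versican and link proteins organise it into hydrated coats, CD44 anchors it to the cell surface, and CEMIP and the hyaluronidases cut it. In embryonic mesenchyme, hyaluronan and versican fill the loose matrix between cells. The genes described here are 10 genes of hyaluronan synthesis, binding and turnover, taken by gene symbol from a table of 78409 genes: Has1, Has2, Has3, Cd44, Vcan, Hapln1, Hapln3, Cemip, Hyal1 and Hyal2. Each symbol had 1 row. Of these, 8 passed the filter on low counts, as did 14834 genes in all, and Has3 and Hapln1 did not.

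RNA was measured in nephrogenic stroma, the connective tissue cells between the forming nephrons at the rim of the fetal kidney. The mice were wild-type CD1 at embryonic day 18, and cells were sorted for the surface receptor PDGFRa, in a medium that held the ROCK inhibitor Y27632, then cultured for 18 h in medium with 10% serum. They sat on coverslips coated with PDMS, a silicone elastomer, which had been kept for 4 h in bovine fibronectin at 50000 ng/mL (high adhesion, 3 libraries) or at 500 ng/mL (low adhesion, 3 libraries). Each of 3 litters, a pool of kidneys, gave 1 library of each kind, so every comparison was paired by litter. Library totals were 12596249 to 13508257 counts, and 1 count stood for 0.074 to 0.0794 CPM, the deposited counts scaled to library size.

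Stromal marker genes were detected in every library, at levels that differed widely. Foxd1 had 157 to 216 CPM, Meis2 150 to 215 CPM, Pdgfra 16.9 to 33.6 CPM and Tbx18 4.38 to 8.95 CPM. All 8 stromal markers passed the test for adhesion, 7 lower at high adhesion and 1 (Vim) higher. Of all tested genes, 9.55% passed, 4.71% higher and 4.83% lower, and each count for the lists below stands beside that share. Markers of other cells were present too. The summed level of 8 macrophage and leukocyte genes was 32.0 to 78.5 CPM at high and 38.1 to 72.8 CPM at low adhesion, and 1 of 8 tested, Lyz2, was higher. That of 8 epithelial genes, mostly the keratin gene Krt18, was 470 to 891 CPM at high and 294 to 591 CPM at low adhesion, and 3 of the 7 tested (Krt8, Krt18 and Krt19) were higher. Of 6 endothelial genes, all tested, Flt1, Emcn and Kdr made up most counts, and Pecam1, Cdh5 and Tek had 0.714 to 2.04 CPM. Their summed level was 70.8 to 97.9 CPM at high and 66.8 to 87.5 CPM at low adhesion, and Flt1 passed higher and Emcn lower. That of 6 nephron progenitor genes was 53.0 to 70.8 CPM at high and 47.7 to 64.4 CPM at low adhesion, and 1 of 6 tested, Cited1, was higher. That of 6 podocyte genes was 35.0 to 51.5 CPM at high and 39.0 to 49.4 CPM at low adhesion, and 1 of 4 tested, Podxl, was higher. No gene of these marker lists was at 0 in all libraries, and some, Ret and Nphs1 among them, were below the low-count filter. In bulk RNA, fewer cells of a type and less RNA per cell cannot be told apart.

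Vcan and Has1 fell at high adhesion, and the other 6 tested genes, Has2 and Cd44 among them, did not pass. That is 2 of 8 called, both lower, beside 9.55% of all tested genes called, 4.71% higher and 4.83% lower. A call is an adjusted p under 0.05 in the quasi-likelihood test of edgeR, paired by litter, with Benjamini-Hochberg adjustment across the whole tested table. The median log2 fold change, high over low adhesion, was 0.026 over the 8 genes and -0.0012 over all tested genes. Cd44 (edgeR unadjusted p = 0.0316) and Cemip (edgeR unadjusted p = 0.0478) were under 0.05 only before adjustment. The libraries of the substrates did not overlap for 1 of the 8, Vcan, beside 15.4% of all tested genes. Has1, Vcan and Cemip went one way in 3 of 3 litters, 3 of 8 beside 41.3% of all tested genes. Without litter in the model (no replicate block) neither Vcan nor Has1 passed, and 36 genes passed in all (0.243%).

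**Figure D1:**
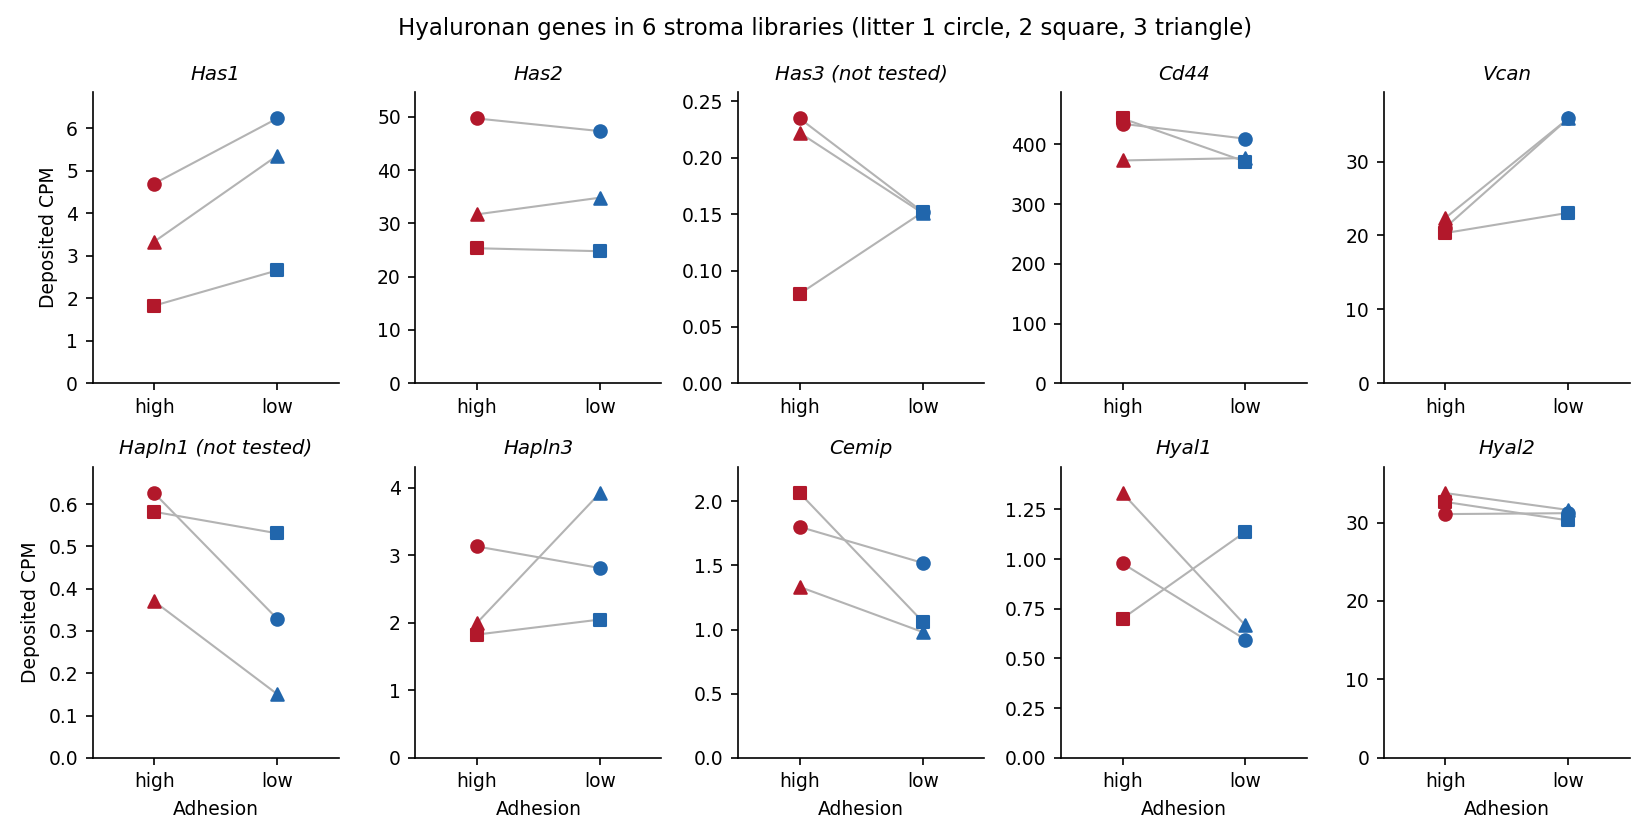
Deposited CPM of the 10 hyaluronan genes in each library (y axes start at 0 and differ between panels), high adhesion left in red and low adhesion right in blue, with grey lines joining the libraries of a litter. Vcan and Has1 are lower at high adhesion in 3 of 3 litters, while Has2 keeps nearly the same level within each litter.

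The transcripts stood at very different levels. Divided by the merged exon length of each gene, Cd44 was first with 61.5 ± 5.65 CPM per kb at high and 56.9 ± 3.04 at low adhesion (SD, n = 3 each). Hyal2 followed with 9.87 ± 0.409 CPM per kb at high and 9.42 ± 0.207 at low adhesion, then Has2 with 8.39 ± 2.98 at high and 8.41 ± 2.66 at low adhesion. The libraries of these neighbours overlapped. Vcan had 1.47 ± 0.0712 CPM per kb at high and 2.18 ± 0.510 at low adhesion, above Has1 with 0.727 ± 0.318 at high and 1.05 ± 0.413 at low adhesion. Has1 and Hapln3 overlapped, with Hapln3 at 0.660 ± 0.202 CPM per kb at high and 0.833 ± 0.268 at low adhesion. Below them came Hyal1 with 0.266 CPM per kb at high and 0.212 at low adhesion, and Cemip with 0.142 at high and 0.0971 at low adhesion. Hapln1, with 0.0891 CPM per kb at high and 0.0571 at low adhesion, and Has3, with 0.0280 at high and 0.0237 at low adhesion, were last. The order of the 10 means was the same on both substrates, and Cemip and Hapln1 overlapped at low adhesion only. Exon lengths came from an older annotation (GENCODE M21), and how the reads spread along a transcript is not given in the sources used here, so these levels are approximate.

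Of the 3 synthases, Has1 was lower at high adhesion and Has2, the main embryonic synthase in mice, held the same mean on both substrates. Has2 (ENSMUSG00000022367) was measured at 49.7, 25.3 and 31.7 CPM in the high adhesion libraries of litters 1, 2 and 3, against 47.3, 24.8 and 34.8 CPM in the low adhesion libraries. The libraries lay in pairs by litter, and the substrates overlapped fully. The means were 35.6 ± 12.6 CPM at high and 35.6 ± 11.3 CPM at low adhesion (SD, n = 3 each). The log2 fold change was -0.013 ± 0.067 (standard error, edgeR adjusted p = 0.945), with a 95% interval of 0.901-fold to 1.09-fold for high over low adhesion. Has2 held fractional counts in 4 of 6 libraries. Its exons overlap those of the antisense gene Has2os, which held fractional counts in 0 libraries. Whether reads of the pair are mixed was not tested.

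Has1 (ENSMUSG00000003665) had 4.70, 1.83 and 3.33 CPM at high adhesion in litters 1, 2 and 3, against 6.23, 2.66 and 5.36 CPM at low adhesion. Each litter was lower at high adhesion, although the substrates overlapped because litter 2 was low on both. The counts behind these values were small, 60, 23 and 45 reads at high adhesion and 82, 35 and 71 at low adhesion. Has1 fell 1.45-fold, a log2 fold change of -0.54 ± 0.16 (standard error, edgeR adjusted p = 0.0271). The adjusted p was 0.614 in DESeq2, 0.759 in edgeR with no replicate block, 0.0658 without litter 1 and 0.244 without litter 3, so this call rests on the choice of test and on single litters. Has1 did pass in limma-voom (adjusted p = 0.0318) and without litter 2 (edgeR adjusted p = 0.0416). Has3 (ENSMUSG00000031910), the synthase often found in epithelia, had 3, 1 and 3 reads at high adhesion, against 2, 2 and 2 at low adhesion, which is at or under the 3 counts taken as the limit of detection. No fold change is given for it.

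Versican binds hyaluronan and is the large proteoglycan of embryonic mesenchyme. Vcan (ENSMUSG00000021614) had 21.1, 20.3 and 22.4 CPM at high adhesion in litters 1, 2 and 3, against 35.8, 23.1 and 35.8 CPM at low adhesion. The high adhesion libraries lay close together and below every low adhesion library, while the low adhesion library of litter 2 stood well below the other two. The means were 21.2 ± 1.03 CPM at high and 31.6 ± 7.37 CPM at low adhesion (SD, n = 3 each). Vcan fell 1.48-fold, a log2 fold change of -0.57 ± 0.093 (standard error, edgeR adjusted p = 0.000431), and within litters 1, 2 and 3 the log2 ratios were -0.77, -0.18 and -0.68. It also passed in DESeq2 (adjusted p = 0.0059) and without litter 1, 2 or 3, but not with no replicate block (edgeR adjusted p = 0.32). Of the 8 stromal markers, 7 fell in the same libraries, with log2 fold changes of -0.58 (Tbx18) to -0.21 (Col1a1), and Vim rose by 0.12 on that scale. Their part in the fall of Vcan was not tested.

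The bases just before the annotated starts of the genes that fell are shown so that their promoters can be read side by side. They are the 250 bases upstream on the gene's own strand, 5′ to 3′, from RefSeq for build GRCm38.p6, at chr17:17855189-17855438 (minus strand) for Has1 and chr13:89742513-89742762 (minus strand) for Vcan. Capitals mark any match, on either strand, to the letters of 6 motifs. The cyclic AMP response element was searched as TGACGTCA. The site of AP-1, a dimer of Fos and Jun proteins, was searched as TGANTCA. The site of the TEAD factors, partners of YAP, was searched as CATTCC. The GC box, bound by Sp1, was searched as GGGCGG. The TATA box, which positions transcription starts, was searched as TATAAA. The CArG box of serum response factor was searched by its usual form. No match overlapped another.
Has1: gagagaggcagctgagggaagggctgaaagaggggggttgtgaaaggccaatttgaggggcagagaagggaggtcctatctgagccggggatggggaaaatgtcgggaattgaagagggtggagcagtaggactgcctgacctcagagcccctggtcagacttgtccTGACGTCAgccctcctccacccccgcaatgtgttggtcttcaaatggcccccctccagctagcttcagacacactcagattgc
Vcan: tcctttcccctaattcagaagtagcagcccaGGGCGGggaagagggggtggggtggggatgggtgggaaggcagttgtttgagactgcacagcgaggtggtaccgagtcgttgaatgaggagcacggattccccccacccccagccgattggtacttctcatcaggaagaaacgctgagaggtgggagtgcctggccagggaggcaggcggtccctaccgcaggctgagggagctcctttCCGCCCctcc
The Has1 window holds 1 match, the full cyclic AMP response element, which begins 83 bases before the start and is found in 1.55% of 32817 promoter windows of this length. The Vcan window holds 2 GC boxes, beginning 219 and 10 bases before the start, a motif in 32.7% of windows. Neither window holds the letters searched for AP-1 (6.75% of windows), TEAD (12.6%), the TATA box (12.4%) or the CArG box (1.47%), and the windows share none of the 6 motifs. The promoter table held 8 of the 10 genes.

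Link proteins clamp hyaluronan to versican and its relatives. Hapln1 (ENSMUSG00000021613) had 8, 7.33 and 5 counts in litters 1, 2 and 3 at high adhesion, against 4.33, 7 and 2 at low adhesion. It was higher at high adhesion in 3 of 3 litters, at counts too low for the filter. Hapln3 (ENSMUSG00000030606) had 3.13, 1.83 and 2.00 CPM at high adhesion in litters 1, 2 and 3, against 2.81, 2.05 and 3.92 CPM at low adhesion. The substrates overlapped, and the litters went both ways. Its log2 fold change of -0.35 ± 0.21 (standard error) did not pass (edgeR adjusted p = 0.366), with a 95% interval of 0.582-fold to 1.06-fold, and without litter 3 it was 0.023.

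CD44 is the main cell surface receptor of hyaluronan, found on mesenchyme, leukocytes and some epithelia. Cd44 (ENSMUSG00000005087) had 434, 443 and 373 CPM at high adhesion in litters 1, 2 and 3, against 409, 371 and 377 CPM at low adhesion. Litters 1 and 2 were higher at high adhesion and litter 3 was level, so the substrates overlapped. The means were 417 ± 38.3 CPM at high and 386 ± 20.6 CPM at low adhesion (SD, n = 3 each). The log2 fold change was 0.11 ± 0.046 (standard error, edgeR adjusted p = 0.173), with a 95% interval of 1.01-fold to 1.15-fold before adjustment for the genes tested, and without litter 2 the value was 0.021.

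On the side of breakdown, no gene of the 3 listed passed. The product of Cemip (ENSMUSG00000052353) binds hyaluronan and is needed for its cleavage by fibroblasts. Cemip had 1.80, 2.06 and 1.33 CPM at high adhesion in litters 1, 2 and 3, against 1.52, 1.06 and 0.981 CPM at low adhesion. It was above its own litter's low adhesion library in each case, with some overlap between litters. The log2 fold change was 0.54 ± 0.26 (standard error, edgeR adjusted p = 0.222), on 13 to 26 counts a library, and the 95% interval of that log2 value was 0.0057 to 1.07 before adjustment. Hyal2 (ENSMUSG00000010047), a hyaluronidase held at the cell surface by a lipid anchor, had 31.1, 32.6 and 33.8 CPM at high adhesion, against 31.2, 30.3 and 31.6 CPM at low adhesion. Its libraries overlapped between the substrates, and the 95% interval of the ratio was 0.950-fold to 1.15-fold (log2 fold change 0.064 ± 0.067, standard error, edgeR adjusted p = 0.658). Hyal1 (ENSMUSG00000010051), the lysosomal hyaluronidase, had 0.978, 0.701 and 1.33 CPM at high adhesion, against 0.595, 1.14 and 0.666 CPM at low adhesion. Litter 2 went the opposite way to the other litters, and the 95% interval was wide, 0.754-fold to 2.02-fold (edgeR adjusted p = 0.689). Its counts were fractional in 4 of 6 libraries, and its exons overlap those of Hyal3 and Naa80 on the same strand, so its level is uncertain.

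**Figure D2:**
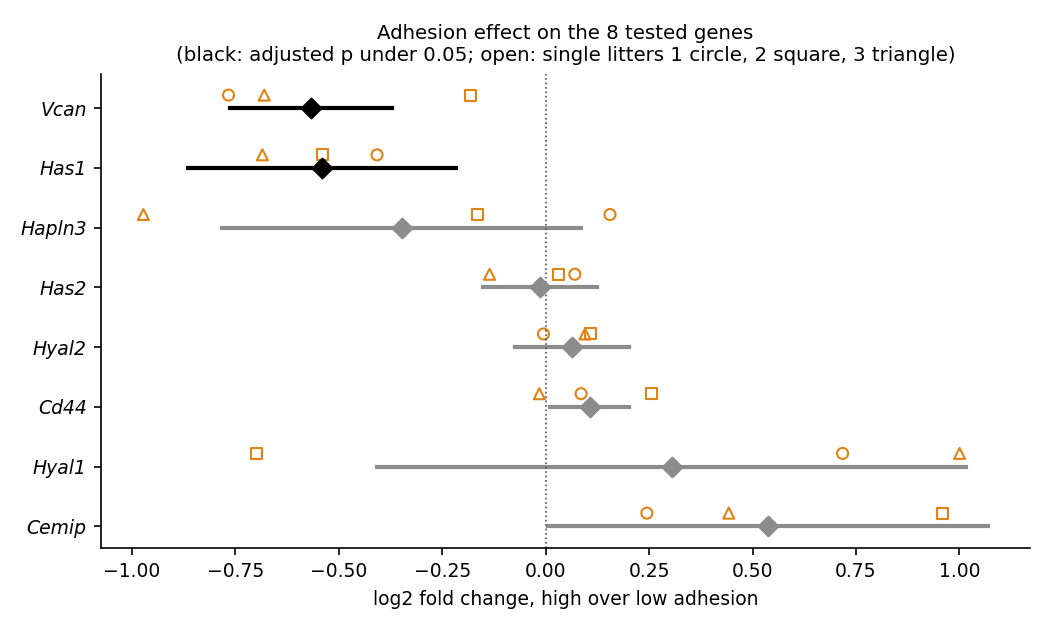
Log2 fold change, high over low adhesion, of the 8 tested genes from the paired edgeR fit (diamonds) with 95% intervals (bars), and the ratio within each litter (open symbols). Vcan at -0.57 and Has1 at -0.54 passed (black), Cd44, Has2 and Hyal2 have narrow intervals near 0, and Hyal1, Cemip and Hapln3 wide ones.

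The levels of Has2 and Has1 differed between litters on both substrates. Of the 8 tested genes, 3 differed between litters in the same model (quasi-likelihood F-test), beside 17.9% of all tested genes. These were Has2 (edgeR adjusted p = 7.47e-09), Has1 (adjusted p = 0.000134) and Vcan (adjusted p = 0.0315). Has2 and Has1 were highest in litter 1, next in litter 3 and lowest in litter 2 on both substrates. Summed levels of 3 marker lists had that litter order on both substrates. In litters 1, 2 and 3 the epithelial sum was 891, 470 and 717 CPM at high and 591, 294 and 392 CPM at low adhesion. That sum was mostly Krt18, with 735, 328 and 576 CPM at high and 491, 200 and 309 CPM at low adhesion. No other gene of the epithelial list had this order on both substrates. Krt19, the next in level, had 73.1, 72.0 and 62.8 CPM at low adhesion. The nephron progenitor sum was 70.8, 53.0 and 58.9 CPM at high and 64.4, 47.7 and 51.8 CPM at low adhesion. The podocyte sum was 51.5, 35.0 and 41.3 CPM at high and 49.4, 39.0 and 43.7 CPM at low adhesion. Endothelial and stromal sums were highest in litter 2 on both substrates. The stromal sum was mostly Vim, at 3053 to 4052 CPM. Pdgfra, the gene of the sorting receptor, had the litter order of Has2. It had 26.5, 16.9 and 19.8 CPM in litters 1, 2 and 3 at high and 33.6, 26.6 and 31.8 CPM at low adhesion. Pdgfrb, Meis1, Tbx18 and Vim were highest in litter 2 on both substrates, and Foxd1, Meis2 and Col1a1 showed neither pattern. The macrophage and leukocyte sum was highest in litter 1, without that order at low adhesion, at 78.5 CPM at high and 72.8 CPM at low adhesion. It was 32.0 CPM at high and 39.6 CPM at low adhesion in litter 2, and 40.4 CPM at high and 38.1 CPM at low adhesion in litter 3. The part of these cells in the litter differences was not tested. For Vcan the litter difference showed in the low adhesion libraries, since the high adhesion ones spanned only 20.3 to 22.4 CPM. With 1 library of each substrate per litter, a litter-specific response could not be tested.

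**Figure D3:**
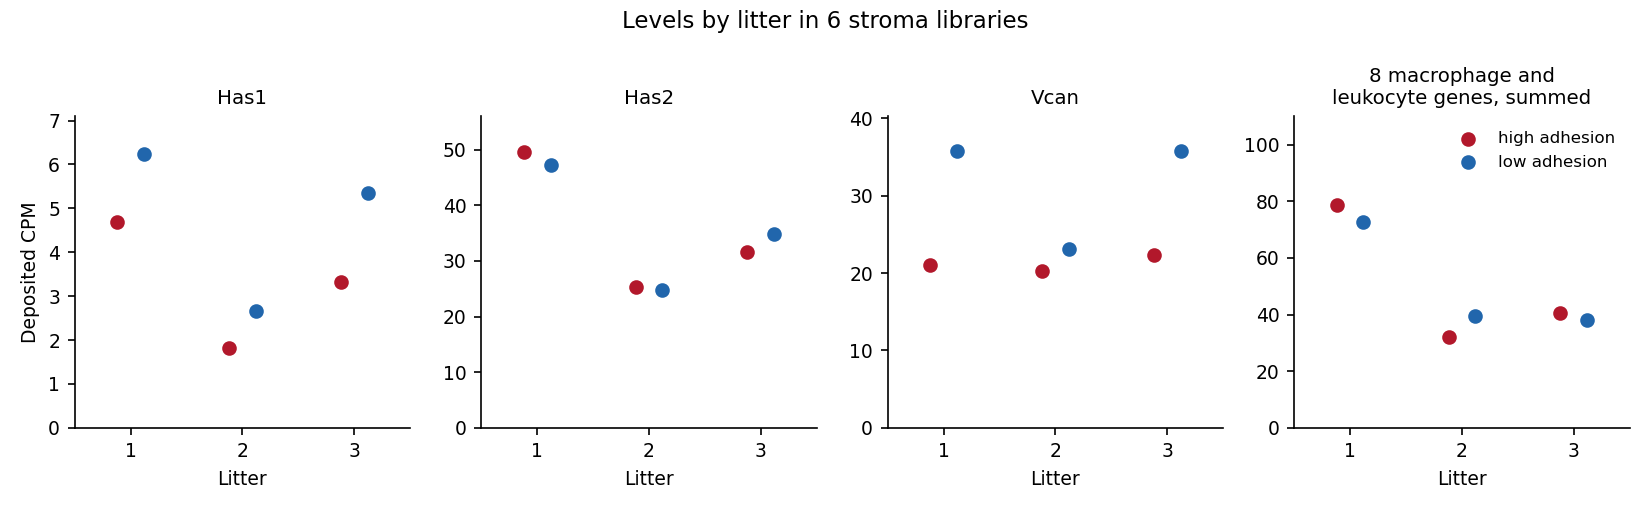
Deposited CPM by litter of Has1, Has2, Vcan and the summed macrophage and leukocyte markers, with high adhesion in red to the left of low adhesion in blue. Has2 runs from 24.8 to 49.7 CPM between litters yet differs little within one, and the macrophage sum is highest in litter 1 but not in the same order of litters at low adhesion.

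Genes for the sugar precursors of hyaluronan did not pass. Both precursors are nucleotide sugars, UDP-glucuronate and UDP-N-acetylglucosamine. Of 10 genes that make them, 0 were called by edgeR in either direction, beside 9.55% of all tested genes. The median log2 fold change was -0.082. Ugdh, which makes UDP-glucuronate, came closest. Its values were 134, 159 and 130 CPM at high adhesion in litters 1, 2 and 3, against 136, 178 and 151 CPM at low adhesion. It was lower in 3 of 3 litters, with a log2 fold change of -0.14 ± 0.046 (standard error, edgeR adjusted p = 0.058). The adjusted p was 0.0409 over genes of at least 5 CPM and 0.0421 without litter 1. Gpi1, a glycolytic enzyme whose product feeds the hexosamine branch, averaged 130 ± 15.9 CPM at high and 125 ± 10.8 CPM at low adhesion (SD, n = 3 each, edgeR adjusted p = 0.663), and its counts were fractional in 5 of 6 libraries.

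Among other hyaluronan binding genes 1 rose, 1 fell and 7 did not pass of 9 tested, beside 9.55% of all tested genes called. The list median was -0.0012. Ptx3, a secreted pentraxin that helps to crosslink hyaluronan in the mouse cumulus matrix, rose to 151 ± 35.3 CPM at high adhesion, against 133 ± 34.2 CPM at low adhesion (SD, n = 3 each, edgeR adjusted p = 0.00588). Acan, for the proteoglycan aggrecan of the versican family, was 54.5, 54.8 and 57.7 CPM at high adhesion in litters 1, 2 and 3, against 63.0, 58.9 and 68.9 CPM at low adhesion. Its substrates did not overlap, and it fell 1.14-fold (edgeR adjusted p = 0.0311). Per kb of exon, Acan stood at 7.45 CPM at high and 8.52 CPM at low adhesion, above Vcan on both. Neither Ptx3 nor Acan passed in DESeq2 (adjusted p = 0.0961 and 0.39), and Acan did not pass without litter 1 (edgeR adjusted p = 0.174) or litter 3 (0.296). Of the 22 genes listed, 13 were below the filter, among them Lyve1, the hyaluronan receptor of lymphatic endothelium and some macrophages, at no more than 0.151 CPM.

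Of 5 tested genes of further breakdown (median 0.013), 1 fell and 4 did not pass, beside 9.55% of all tested genes called. The one was Cemip2, a transmembrane relative of Cemip, at 46.7, 44.5 and 39.5 CPM at high adhesion, against 52.1, 50.5 and 45.6 CPM at low adhesion in litters 1, 2 and 3. It was lower in each litter, with a log2 fold change of -0.18 (edgeR adjusted p = 0.0485), a call at the threshold that was lost in DESeq2 (adjusted p = 0.533) and when any 1 litter was left out. Hexa, which encodes a lysosomal enzyme, and Gusb, lysosomal glucuronidase, had log2 fold changes of 0.035 and -0.0074. Hyal4 and Spam1 had no count in any library.

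Of 7 tested genes of versican cleavage and partners, 1 rose, 3 fell and 3 did not pass, beside 9.55% of all tested genes called, and the median was -0.25. Adamts5, a protease that cleaves versican and aggrecan, rose 1.45-fold. It was measured at 65.2, 99.0 and 82.3 CPM at high adhesion in litters 1, 2 and 3, against 47.4, 59.1 and 62.3 CPM at low adhesion, without overlap (edgeR adjusted p = 2.55e-06). Adamts1, a protease of the same family, fell 1.20-fold to 74.6 ± 22.3 CPM at high adhesion, against 88.5 ± 21.2 CPM at low adhesion (SD, n = 3 each, edgeR adjusted p = 0.00172). Fbln2, for a fibulin that binds versican, fell 1.24-fold to 304 ± 13.7 CPM, against 378 ± 48.9 CPM at low adhesion (SD, n = 3 each, edgeR adjusted p = 1.85e-05). Fbn1, for the microfibril protein fibrillin-1, fell 1.23-fold to 42.3 ± 7.55 CPM at high adhesion, against 51.7 ± 5.20 CPM at low adhesion (SD, n = 3 each, edgeR adjusted p = 0.00399). The call for Fbn1 was lost in DESeq2 (adjusted p = 0.11), and in edgeR without litter 1 (adjusted p = 0.0597) or litter 3 (adjusted p = 0.0592).

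Around CD44, 1 of 8 tested genes rose, 1 fell and 6 did not pass, beside 9.55% of all tested genes called. The list median was -0.069. Spp1, for osteopontin, a secreted ligand of CD44, fell 1.46-fold. It had 28.5, 21.8 and 22.9 CPM at high adhesion in litters 1, 2 and 3, against 43.0, 28.3 and 35.3 CPM at low adhesion, lower in each litter (edgeR adjusted p = 6.96e-06). Ezr, for ezrin, which links CD44 to actin, rose 1.20-fold to 103 ± 35.5 CPM at high adhesion, against 86.1 ± 33.8 CPM at low adhesion (SD, n = 3 each, edgeR adjusted p = 0.00115). Its adjusted p was 0.051 without litter 3. None of the 9 genes called in these pathway lists passed with no replicate block in edgeR.

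**Figure D4:**
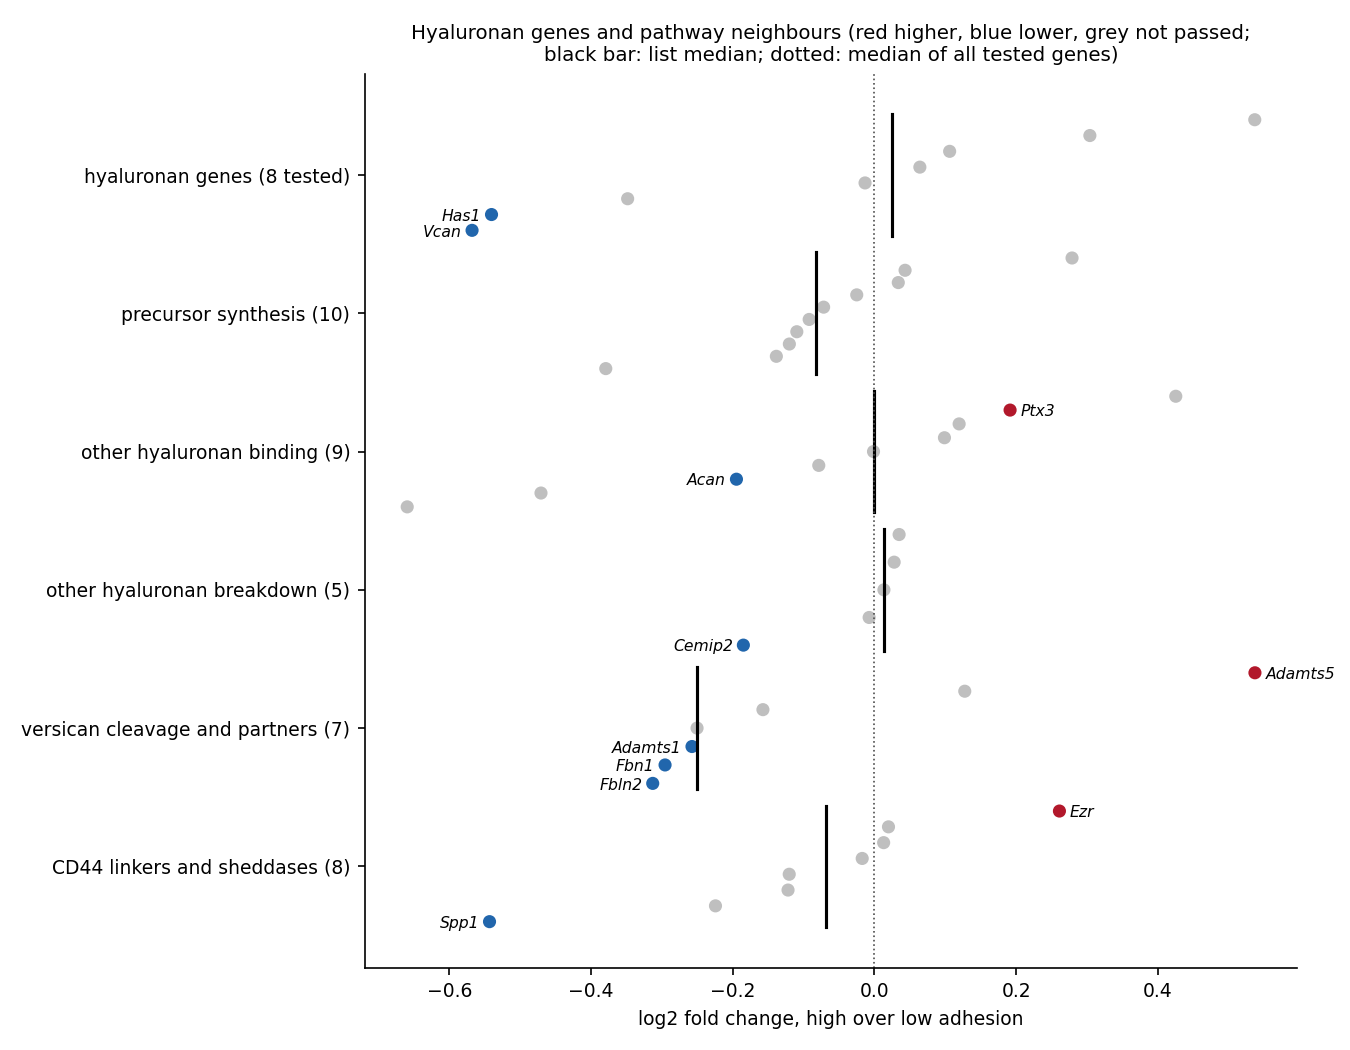
Log2 fold change, high over low adhesion, of each tested gene in the hyaluronan set and 5 neighbouring lists, red where higher and blue where lower at an adjusted p under 0.05, grey otherwise; black bars are list medians and the dotted line the median of all tested genes. Vcan and Has1 fell, as did Fbln2, Fbn1 and Adamts1, while Adamts5 rose, and no precursor gene passed.

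Across the 6 libraries the genes most like Has2, by Pearson's r of log2 CPM among 9396 named genes of at least 5 CPM, were Ddx21 (r = 0.996), Hilpda (r = 0.995) and Vasn (r = 0.993). For Cd44 they were Rrm2b (r = 0.980), Anxa4 (r = 0.969) and Chmp2b (r = 0.962), and for Vcan they were Rpl13a (r = 0.996), Brwd3 (r = 0.983) and Tcirg1 (r = 0.980). The 6 points share litter and substrate, and these values are a description only.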

How the data were processed

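Polyadenylated RNA of 6 libraries was captured, reverse transcribed and tagmented by a commercial service, per the labels' protocols. The build was GRCm39, per the submitters' processing notes, which also list fastp 0.24.0, FastQC 0.12.1, STAR 2.7.11, Subread 2.1.1 with featureCounts, SAMtools 1.22.1 and MultiQC 1.32. Annotation release, strand setting and the handling of shared reads were not given in the sources used here. Per the file headers, the authors deposited estimated counts per gene, fractional for 7736 to 8256 genes a library, and CPM, which match CPM recomputed from the deposited counts to 5.1e-11.

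Deposited CPM are printed per library. For tests, counts were rounded, filtered with filterByExpr (14834 genes kept), scaled by TMM (factors 0.988 to 1.01) and fitted in edgeR 4.0.16 (R 4.3.3) with litter and adhesion. Standard errors are the absolute log2 fold change over the root of F. Intervals cover 95%. Litters are matched per the series' design text, and deviations from the group mean of same-litter libraries correlated at 0.607, 0.61 and 0.406 over 14003 genes, against -0.514 to -0.0936 between litters. Alternatives used DESeq2 1.42.0, limma-voom (limma 3.58.1), another scaling, other filters, unrounded counts, no replicate block and leaving out each litter. The edgeR script was tested on simulated data. Exon lengths came from GENCODE M21, which matched 94.8% of tested genes.

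The 10 genes, the pathway lists and the marker lists were chosen with earlier results of these data known, so no list was given a test of its own. In the pathway lists the text names up to 4 called genes of lowest adjusted p, or the 2 most abundant where none was called. Lyve1, Hexa, Gusb, Hyal4, Spam1 and the marker genes with values or calls were named after their values were seen.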

Additional observations from a re-analysis of the deposited data

How the results depend on the processing

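With no replicate block, edgeR called 36 genes (20 higher, 16 lower) in place of 1416 (699 higher, 717 lower), 0 of the hyaluronan genes, and 0 higher and 0 lower pathway genes in place of 3 and 6. DESeq2 called 406 genes (207 higher, 199 lower), 1 of the hyaluronan genes (Vcan) for adhesion and 1 for litter, and 3 lower pathway genes. DESeq2 gave no adjusted p for Hapln3, Cemip and Hyal1. Over genes of at least 5 CPM, which leaves out Has1, 1 hyaluronan gene was called. Leaving out each litter gave 908 to 1553 genes (426 to 734 higher, 482 to 819 lower), 1 to 2 hyaluronan genes for adhesion and 2 to 3 for litter, and 2 to 4 higher and 3 to 7 lower pathway genes. The lowest count of all genes came without litter 3.

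Single log2 fold changes of the 8 tested hyaluronan genes were refitted 73 times. The sign and the side of the threshold held in 65, the call was lost in 5 (4 for Has1, 1 for Vcan), and the sign turned in 3. The 3 were without litter 3 and had no call in either fit: Has2 at 0.051 (lowest -0.056, without litter 1), Hapln3 at 0.023 (lowest -0.64, without litter 1) and Hyal1 at -0.074 (highest 0.80, without litter 2). Vcan ranged from -0.74 without litter 2 to -0.45 without litter 1. For the 11 named pathway genes, 86 refits kept sign and side, 22 lost the call, 2 gained it (Ugdh) and 0 turned. The cause of these changes was not tested beyond their construction. At 1 count for 0.074 to 0.0794 CPM, depth limits Has3, Hapln1, Hyal1, Cemip, Hapln3 and Has1.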

Other observations

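Has1 made up a smaller share of synthase counts at high adhesion in each litter. Of all counts on Has1, Has2 and Has3, Has1 held 8.61% (95% exact binomial interval 6.63% to 10.9%), 6.71% (4.30% to 9.89%) and 9.45% (6.98% to 12.4%) at high adhesion in litters 1, 2 and 3. The same share was 11.6% (9.34% to 14.2%), 9.64% (6.81% to 13.2%) and 13.3% (10.5% to 16.4%) at low adhesion. The intervals of the substrates overlap within each litter and cover counting error only. Has2 held 86.4% to 93.0% of the synthase counts in the 6 libraries. This share was computed after the values of Has1 and Has2 were seen and is a description.

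The antisense gene Has2os, also chosen after its values were seen, had 48, 11 and 19 counts at high adhesion in litters 1, 2 and 3, against 26, 18 and 26 at low adhesion. It was higher in litter 1 and lower in the other two, and did not pass (edgeR adjusted p = 0.786). Like Has2, it was highest in litter 1 at high adhesion and differed between litters (edgeR adjusted p = 0.0162).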
